A study of Mus musculus with 4 samples.

Results

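Neutrophils were chosen by their counts in the single-cell tables of subcutaneous Lewis lung carcinoma (LLC) tumors, and 353 of the 55058 barcodes kept met the rule. Kept barcodes had 200 genes or more, and no more than 20% of their UMIs (unique molecular identifiers, each marking 1 captured transcript) fell on mitochondrial genes. A kept barcode was then selected on S100a8 and S100a9, which together had to hold at least 1% of its UMIs, and on at least 2 UMIs of Csf3r, Cxcr2, Retnlg and Hdc summed. At most 1 UMI of C1qa, C1qb and C1qc summed (complement genes of macrophages) and at most 1 UMI of Rhox5 (a gene of the LLC cells) were allowed. Of these neutrophils, 347 came from irradiated tumors and 6 from control tumors.

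LLC is a lung carcinoma line of C57BL/6 mice, and here it was grown under the skin of the flank of female C57BL/6N mice that were 6 to 8 weeks old when obtained. The radiotherapy group (RT) received 24 Gy in 3 fractions of 8 Gy, a hypofractionated schedule, and its 3 libraries (RT1, RT2 and RT3) are given as individual samples. The control group (NT) was mock treated and is 1 library of 3 pooled tumors. All tumors were taken at 72 h. With a single control library there is no spread between control samples. No test between NT and RT was run, and a fixed rule of size was used in its place. NT was deposited with 10141 barcodes, RT1 with 15346, RT2 with 14994 and RT3 with 15324. The kept barcodes carried 69265692 UMIs in NT and 77699472, 108699270 and 85050204 in RT1 to RT3.

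The RT2 table stood apart from the others. It lists 18605 genes where the others list 32285, and no barcode in it exceeded 11.953% mitochondrial UMIs. The main counts were therefore also made without RT2. Between 182 and 277 barcodes were shared by each pair of libraries, and 11 neutrophil barcodes were also listed in another library, but no barcode was a neutrophil in more than 1 library.

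Neutrophils are short-lived granulocytes that are made in the bone marrow, packed with granule proteins in a fixed order as they mature, and released into blood. They follow gradients of CXCR2 ligands, formyl peptides, complement fragments and leukotrienes into inflamed or damaged tissue, where they secrete cytokines, proteases and reactive oxygen. In tumors they have been described both as cells that harm tumor cells and as cells that restrain T cells.

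Neutrophils were rare in every library and rarer in NT than in any RT library. In NT, 6 of 9976 kept barcodes were neutrophils, a share of 0.0601% (exact Clopper-Pearson 95% interval 0.0221 to 0.131%). The share was 0.725% in RT1 (109 of 15029, 0.596 to 0.874%), 1.12% in RT2 (168 of 14993, 0.958 to 1.30%) and 0.465% in RT3 (70 of 15060, 0.363 to 0.587%). The RT mean was 0.770% ± 0.330 (SD, n = 3), 0.710 percentage points above NT and 12.8 times its share, and single RT libraries had 7.73 to 18.6 times the NT share. Without RT2 the difference was 0.535 percentage points. The intervals of the 4 libraries did not overlap, in the order NT, RT3, RT1 and RT2. These intervals, and all others given here, cover counting error only.

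**Figure D1:**
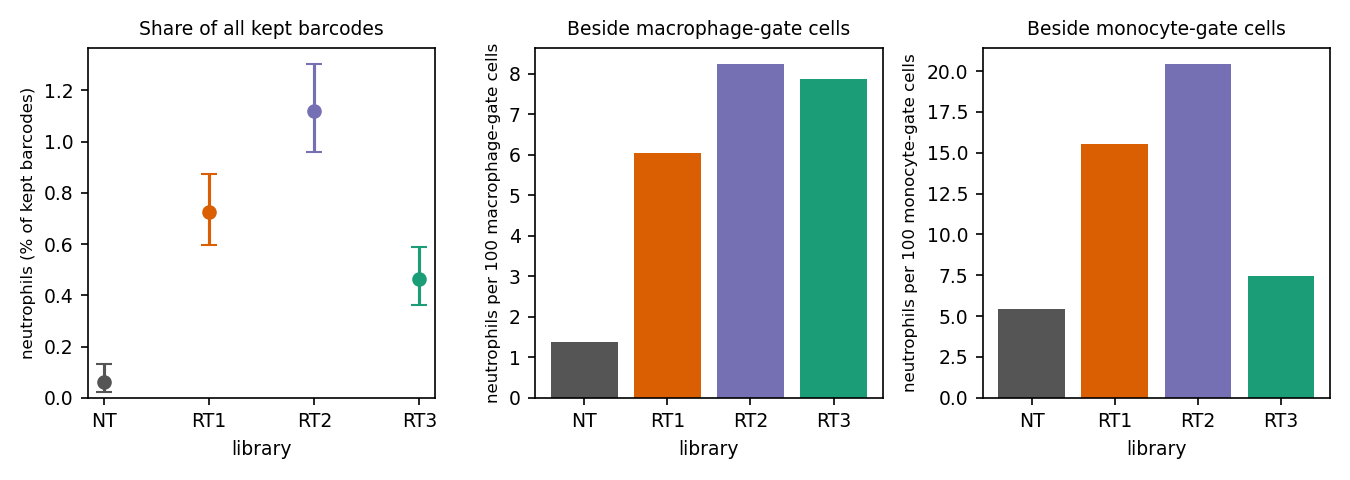
Neutrophils in each library: left, the share of all kept barcodes in percent, with bars for the exact 95% binomial interval; middle and right, neutrophils per 100 barcodes of the macrophage gate and of the monocyte gate. All 3 RT libraries sit above NT in each panel, and RT3, at 0.465% of barcodes, has the fewest neutrophils of the RT libraries by share but not per macrophage.

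The other myeloid gates were also larger in RT. Macrophages were gated on at least 10 UMIs of C1qa, C1qb and C1qc summed, and monocytes on at least 3 UMIs of Ly6c2, Ccr2 and Chil3 summed and at least 3 of Lyz2. Both gates left out barcodes past the S100 limit or with over 1 UMI of Csf3r, Cxcr2, Retnlg and Hdc or of Rhox5, and the monocyte gate also those with over 1 complement UMI. The macrophage gate held 439 barcodes in NT and 1801, 2042 and 889 in RT1 to RT3, and the monocyte gate held 110 in NT and 701, 823 and 935. Per 100 macrophages there were 1.37 neutrophils in NT and 6.05, 8.23 and 7.87 in RT1 to RT3 (RT 7.38 ± 1.17, n = 3). The RT libraries lay close together on this scale, and each had at least 4.43 times the NT value. Per 100 monocytes there were 5.45 in NT and 15.5, 20.4 and 7.49 in RT1 to RT3, so that RT3 had 1.37 times the NT value. Among barcodes with at most 1 Rhox5 UMI, a count that leaves out most tumor cells, neutrophils were 0.189% in NT and 1.55%, 2.25% and 1.10% in RT1 to RT3.

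The cells were small in RNA content. Their median was 631 UMIs in NT and 816, 942.5 and 714.5 in RT1 to RT3, against 3169 to 4514 for macrophages and 1398 to 2463 for monocytes of the RT libraries. The lowest neutrophil in each RT library had 500 UMIs, and the lowest of all kept barcodes had 499, so that neutrophils lie close to the lowest depth in the tables, and 221 of the 347 RT neutrophils and 5 of the 6 in NT had fewer than 500 genes. When every kept barcode was thinned to 500 UMIs before gating, 4 barcodes of NT and 109, 167 and 67 of RT1 to RT3 met the rule. Neutrophils below that depth were not analysed here.

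The limits of the gate were looked at on both sides. In the RT libraries 395 barcodes met the S100 limit, 374 also met the limit on Csf3r, Cxcr2, Retnlg and Hdc, 364 the complement limit and 347 the Rhox5 limit. A further 249 RT barcodes met every limit but that on S100. Of these, 155 had no UMI of S100a8 or S100a9. They had Lyz2, a lysozyme gene of monocytes, macrophages and also neutrophils, at 5142 CPM (UMIs of a gene per 1000000 UMIs of the barcodes concerned) and Retnlg at 16.0. The 36 barcodes just outside, at 0.5 to 1% S100, had Retnlg at 1226 and Lyz2 at 3887, and the 60 just inside, at 1 to 2%, had Retnlg at 6160 and Lyz2 at 1882.

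The genes of the rule are given as a description of what was selected. S100a8 and S100a9 encode calprotectin, a calcium and zinc binding complex that fills the neutrophil cytoplasm. S100a8 was at 17098 CPM in NT and 25693, 31090 and 23404 in RT1 to RT3, and S100a9 was at 17560 in NT and 23964, 26338 and 20224. Csf3r, the G-CSF receptor, was at 1617 in NT and 1978, 2312 and 1618. Cxcr2, the receptor for Cxcl1, Cxcl2 and Cxcl3, was at 693 in NT and 611, 889 and 938. Hdc, which makes histamine, was at 3697 in NT and 3500, 3793 and 4302. The NT levels of Csf3r and Cxcr2 rest on 7 and 3 UMIs. All levels below are in CPM, from UMIs summed over the neutrophils of a library and divided by all their UMIs, 4328 in NT and 96563, 172148 and 54392 in RT1 to RT3. The kit counts transcripts from their 3′ end, so a level does not grow with transcript length.

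Markers of most other cell types had few or no UMIs, while those of monocytes and fibroblasts were measurable. B cell markers (3 genes in the tables) had 0 UMIs in all neutrophils, and the mast cell markers other than Hdc had 0, among them Cpa3 and Fcer1a. Eosinophil markers had 1 UMI in RT1 and 1 in RT3, with Epx, Prg2, Ear1 and Ccr3 at 0. The 6 macrophage markers that the rule did not use summed to 269, 337 and 55.2 in RT1 to RT3, led by Csf1r, against a mean of 6320 in the macrophage gate. Monocyte markers were higher, at 2444, 2422 and 1508 in RT1 to RT3, led by Ly6c2, and they had no UMI in the 6 NT neutrophils. Their mean in the monocyte gate was 9967. That gate was itself chosen on Ly6c2, so its mean is raised by the selection and is no measure of how far neutrophils lie from monocytes. Ccr2, the receptor that brings monocytes into tissue, had UMIs in RT1 neutrophils (41.4) and none in RT2 and RT3. Fibroblast markers, led by Col3a1, summed to 300.3, 203 and 552, above their means of 133 in the monocyte gate and 96.3 in the macrophage gate, and those of tumor cells other than Rhox5 to 104, 110.4 and 110.3. The part of free RNA in these values was not tested.

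Granule genes of early stages were absent and those of late stages present. All 5 genes of azurophil granules, which are made in the earliest marrow stages (Mpo, Elane, Prtn3, Ctsg and Ms4a3), were at 0 UMIs in every neutrophil. Cebpe and Gfi1, transcription factors of granulocyte precursors, were also at 0. Of the specific granule genes made at the next stage, Camp and Ltf had almost no UMIs, at most 18.4 in any RT library. Ngp was at 528, 227 and 165, and Lcn2, which binds the iron carriers of bacteria, was at 1015, 1226 and 1305. Genes listed here as of the later gelatinase granules and of secreted proteins had UMIs in each RT library. Mmp9, a gelatinase, was at 1015, 1284 and 423, and Wfdc21, a secreted antiprotease-like protein, at 2289, 2585 and 2776. Mmp8, a collagenase in the same list though its protein belongs to specific granules, was at 1098, 848 and 1783. The 7 cycling genes together reached only 280, 174 and 239.

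The most abundant genes outside the rule, the ribosome and the mitochondria were Fth1, Srgn, Actg1, Il1b and Cxcl2. Fth1, the ferritin heavy chain that stores iron, was at 24570 ± 1648 in RT (SD, n = 3). Srgn, the proteoglycan core of granules, was at 16470 ± 1048, and Il1b, a main inflammatory cytokine, at 13228 ± 2271. Thbs1 (8868 ± 2510), Cd14 (7687 ± 1082), Wfdc17 (7492 ± 1906), Ifitm1 (6714 ± 2102) and Acod1, which makes itaconate (6420 ± 1133), followed within the first 15.

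Receptors that sense the tissue were set beside those of the monocytes and macrophages of the same libraries. A gene was counted as higher or lower when its level differed at least 2-fold in 1 direction in all 3 RT libraries, and the genes of the gates were left out. Against the monocyte gate, 308 of 6422 genes read were higher in neutrophils (4.8%) and 542 lower (8.44%). Against the macrophage gate, 620 of 9562 were higher (6.48%) and 531 lower (5.55%). Without RT3 the counts were 399 higher and 1166 lower than in monocytes and 864 higher and 1131 lower than in macrophages, and without RT2 they were 333 and 654, and 783 and 629. With at least 20 UMIs expected on both sides, a limit added after the data were seen, 87 of 437 genes were higher and 79 lower than in monocytes. Against macrophages 101 of 421 were higher and 87 lower. These well-counted genes were called more often than the 4.8% to 8.44% over all genes, and no list was tested against them. Neutrophils held fewer UMIs than either gate, and a gene seen only in neutrophils could be read only through them, so these counts describe the gates and support nothing more. Of the 10 chemoattractant receptors, 9 were read against monocytes, 6 were higher and C3ar1 was lower. Fpr1, a formyl peptide receptor, was at 1294, 1086 and 1250 in RT1 to RT3, and the monocyte gate held 28.3, 20.4 and 22.6, a difference of 5.68 ± 0.14 on the log2 scale (SD, n = 3). Ccr1, Fpr2, C5ar1, Ptafr and Ccrl2 were the others higher, with neutrophil levels from 828 to 1818 in single libraries.

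Cytokine and pattern receptors followed. Il1r2, the decoy receptor that binds interleukin 1 without signalling, was at 4080, 3119 and 2997 in RT1 to RT3 and at 335, 246 and 306 in monocytes. In macrophages its mean was 8.31. Of the 15 cytokine receptors 14 were read, and 4 were higher than in monocytes: Il1r2, Il1rap, Il18rap and Tnfrsf1b. This stands beside 4.8% of all genes and 87 of the 437 well-counted ones. Of the 13 read against macrophages 7 were higher, beside 6.48% of all genes and 101 of the 421 well-counted ones. None was lower in either comparison. Cd14, the lipopolysaccharide co-receptor, was at 7788, 6558 and 8714 against 1919, 1816 and 2252 in monocytes, and Trem1, which amplifies inflammatory signals, was at 1647, 1807 and 1710 against 332, 321 and 270. Clec4d, Clec4e, Tlr13 and Pirb were also higher, and Fcgr2b, the inhibitory Fc receptor, was lower at 290, 186 and 55.2 against a monocyte mean of 1086.

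**Figure D2:**
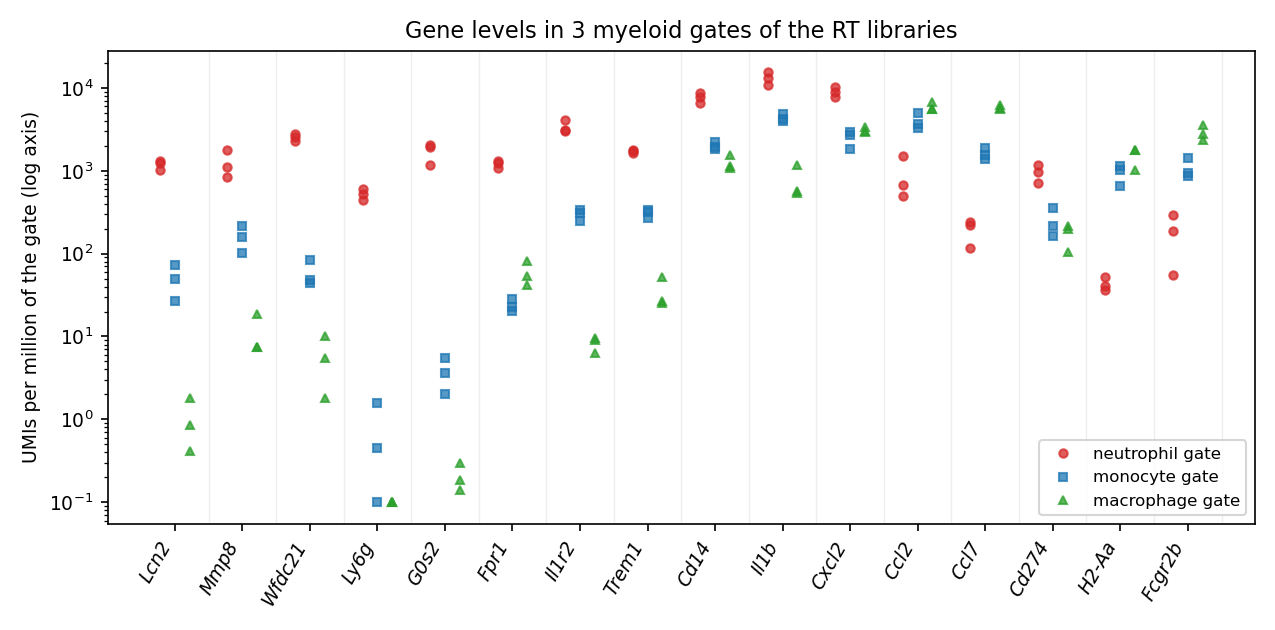
Level of 16 genes in the neutrophil, monocyte and macrophage gates, in CPM (UMIs per 1000000 UMIs) on a log axis, with 1 point per RT library and values of 0 drawn at 0.1. Granule, sensing and interleukin genes sit highest in neutrophils, and Ccl2, Ccl7, H2-Aa and Fcgr2b sit lowest there.

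Of the 16 cytokine and growth factor genes, 7 reached 20 UMIs on average in RT neutrophils, and Il1b was far the most abundant. Il1b was at 15461, 13303 and 10921 in RT1 to RT3 and at 4177, 4871 and 3963 in monocytes. Il1a, Il1rn, Tnf, Csf1 and Tnfsf14 were also above monocytes, so that 6 of the 13 cytokine and growth factor genes read were higher, beside 4.8% of all genes, and Areg was lower. Csf1, the growth factor of macrophages, was at 228, 372 and 368 against a monocyte mean of 61.1 and a macrophage mean of 26.1. Il6, Il10, Il12b and Tgfb1 were at most at 36.8 in any RT library. Although neutrophils carried only 0.124%, 0.158% and 0.0640% of all UMIs of RT1 to RT3, they held 6.56%, 5.02% and 3.41% of the Il1b UMIs of those libraries.

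The chemokines that stood above monocytes, Cxcl2 and Cxcl3, are ligands of Cxcr2, but Cxcl1, another ligand of it, did not. Cxcl1 was at 445, 540 and 1361 in RT1 to RT3 against 660, 541 and 886 in monocytes. Cxcl2 was at 10242, 8981 and 7795 in RT1 to RT3 against 2668, 2973 and 1810 in monocytes, and Cxcl3 was at 5230, 1963 and 3512 against 863, 536 and 1024. Of the 14 chemokine genes 12 were read against monocytes, and these were the only 2 higher by the rule. This stands beside 4.8% of all genes and 87 of the 437 well-counted ones. Ccl2, Ccl7 and Ccl9, chemokines that attract monocytes, were the 3 lower ones, beside 8.44% of all genes: Ccl2 was at 1502, 500 and 680 against 4957, 3651 and 3328. Ccl3 (2869, 1870 and 3751) and Ccl4 (2237, 2242 and 2684) were not 2-fold apart from monocytes in every library. Cxcl5 and Cxcl15 had no UMI in RT neutrophils, and neither did Csf3 and Csf2, the growth factors of granulocytes.

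Genes tied to T cell restraint went both ways beside the other gates. Cd274, which encodes PD-L1, was at 963, 1179 and 717 in RT1 to RT3 against 163, 357 and 214 in monocytes and a macrophage mean of 172 ± 58.8. Ido1 had no UMI. Of the 10 suppressive and checkpoint genes read against monocytes, 4 were higher, among them Nos2, Cd274 and Wfdc17, and 2 lower, beside 4.8% and 8.44% of all genes. Lgals3, a galectin of macrophages, was among the lower, at 238, 430 and 386 against 966, 1837 and 1242.

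Genes of MHC class II, which presents antigen to helper T cells, had few UMIs, and 4 of the 6 read were lower than in monocytes, beside 8.44% of all genes. H2-Aa was at 51.8, 40.7 and 36.8 in RT1 to RT3 and at 1014, 1158 and 658 in monocytes, a difference of -4.43 ± 0.35 on the log2 scale (SD, n = 3), and H2-DMa, H2-DMb1 and Ciita had no UMI. MHC class I was expressed throughout: H2-D1 was at 5862, 7912 and 6784, B2m at 3335, 4090 and 3475, and none of the 11 class I genes was 2-fold apart from monocytes in every library.

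Survival genes stood above monocytes for 4 of 11 members (Mcl1, G0s2, Birc3 and Fas). Glycolysis and hypoxia genes did so for 4 of 20 read (Slc2a3, Pfkfb3, Bnip3 and Egln3), and none was lower in either list. These counts stand beside 4.8% of all genes and 87 of the 437 well-counted ones, and the glycolysis and hypoxia count was near the latter. Mcl1, the factor on which neutrophil survival rests, was at 4215, 4304 and 3879 against 1409, 1350 and 1533 in monocytes, and G0s2, an inhibitor of fat breakdown, was at 1947, 2022 and 1177 against 5.50, 3.63 and 2.05. Slc2a3, the high-affinity glucose transporter GLUT3, was at 456, 325 and 515 against 3.93, 2.73 and 4.79. The 14 p53 targets, which DNA damage can induce, had only Cdkn1a at 20 UMIs or more on average, at 828, 703 and 754. Of the 9 read against monocytes none was higher and Ei24 was lower, and of the 13 read against macrophages none was higher and Ccng1 and Ei24 were lower, beside shares over all genes of 4.8% and 8.44% (monocytes) and 6.48% and 5.55% (macrophages). Among the 12 genes with the largest ratios over monocytes were Stfa2l1 and Cstdc4 of the stefin family of protease inhibitors, Il1f9 (interleukin 36 gamma), Asprv1, Adgrg3, Steap4 and Prok2, together with Ly6g, the antigen by which mouse neutrophils are usually sorted (518, 610 and 441 against 1.57, 0.454 and 0). Beside monocytes, 3 of 9 adhesion genes were higher, among them Itgal and Selplg, and none was lower. Of the 6 NADPH oxidase genes, which make reactive oxygen, Ncf1 and Rac2 were higher and Cybb was lower. Both lists stand beside 4.8% higher and 8.44% lower of all genes, and 87 and 79 of the 437 well-counted ones. All 6 gelatinase granule and secreted genes that could be read, of 9, were higher than in monocytes, beside the same shares. The sum of all 9, which includes Lyz2 of the monocyte gate, went the other way, at an RT mean of 8359 against 13164 in monocytes. Of 25 transcription factors 23 were read, with Cebpb and Nfkbia higher and Cebpa and Atf3 lower, near the shares over all genes. Of 15 iron and oxidative stress genes, 13 of them read, Fth1 and Slc7a11 were higher and Gpx1 and Prdx1 lower, beside the same shares. Siglecf, a sialic acid receptor found on eosinophils and on some tumor neutrophils, had 1 UMI in all RT neutrophils.

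NT neutrophils were compared gene by gene only where the depth allowed. A gene was read when its mean level over the 4 libraries would give at least 10 UMIs in the 6 NT cells, which left 59 genes. Of these, 7 were at least 2-fold higher in every RT library than in NT (11.9%), and 3 were at least 2-fold lower (5.08%). The 59 include 4 genes that selected the cells (S100a8, S100a9, Hdc and Retnlg), and Retnlg is among the 7. Of the other 55, 6 were higher and 3 lower. As 3 of the 4 libraries in that mean are RT, a gene low in NT could be read through RT alone. Cxcl3 was read with 1 UMI in NT, Ifitm3 with 4, and S100a6, Ccl6 and Retnlg with 6 each. The count of higher genes is thus a description and supports nothing more. The median log2 ratio over the 59 genes was 0.06. Without RT2, 8 were higher and 4 lower. TMM scaling, which rests on the few UMIs of NT, gave 97 higher and 0 lower of 154 read, so that the 3 lower genes depend on the scaling, and with neutrophils of at least 500 genes, of which NT has 1, 3 were higher and 0 lower. Every value in NT rests on 4328 UMIs of 6 cells from pooled tumors, and how many of those tumors gave neutrophils is not known.

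Retnlg, a resistin-like secreted protein of neutrophils and 1 of the genes of the rule, had 6 UMIs in NT, or 1386 CPM (exact Poisson 95% interval 509 to 3017), and 13991, 12454 and 17429 in RT1 to RT3. Cxcl3 had 1 UMI in NT (231, 5.85 to 1287) and was at 5230, 1963 and 3512. Cxcl2 was at 2773 in NT (1433 to 4843) and at 10242, 8981 and 7795. No RT library reached down into the NT interval for these 3 genes, but 8 of the 12 Cxcl2 UMIs in NT came from 1 cell. Retnlg, as a gene of the rule, is given as a description. Cxcl3, with 1 UMI in NT, was read only through its RT levels and is a description too. S100a6, a calcium-binding protein, was at 1386 in NT (6 UMIs) and at 7953, 9806 and 5424 in RT1 to RT3. Ccl6, a chemokine of myeloid cells, was at 1386 in NT (6 UMIs) and at 6203, 6500 and 6122. Fth1 was at 5776 in NT (3738 to 8527) and at 26428, 23288 and 23992. Ifitm3, an interferon-induced membrane protein, was at 924 in NT (252 to 2366), and its RT3 value of 2004 lay inside that interval. With fewer than 10 UMIs in NT, S100a6, Ccl6 and Ifitm3 were also read only through their RT levels and are descriptions too. Monocyte markers moved with these genes, from 0 UMIs in NT (upper limit 852 CPM) to 2444, 2422 and 1508 in RT1 to RT3, and their part was not tested.

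The 3 lower genes were Klf2, Nr4a1 and mt-Nd4. Klf2, a factor that keeps leukocytes quiescent, was at 12708 in NT (9573 to 16541) and at 3873, 5513 and 3365 in RT1 to RT3, with UMIs in all 6 NT cells, though 22 and 14 of the 55 came from 2 of them. Nr4a1, an immediate early nuclear receptor, was at 6007 in NT (3924 to 8802) and at 2113, 1841 and 1526, again with UMIs in all 6. Of the 23 UMIs of mt-Nd4 in NT, 14 came from 1 cell with 15.3% mitochondrial UMIs, and the other 4 mitochondrial genes read were not past the rule.

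**Figure D3:**
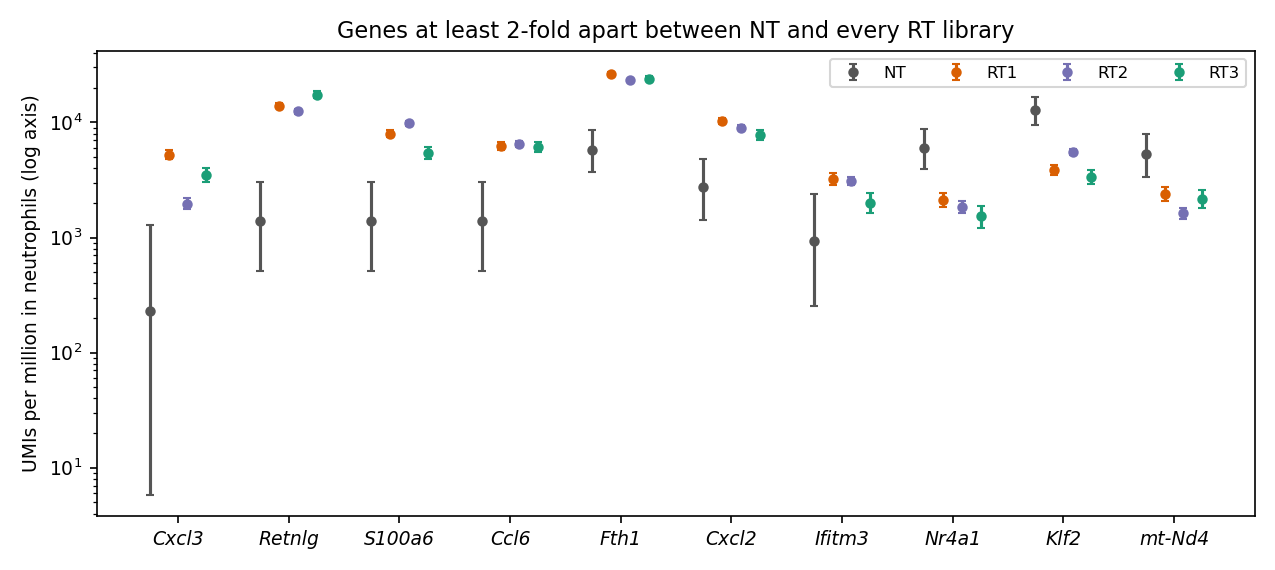
Level of the 10 genes past the rule of size in the neutrophils of each library, in CPM (UMIs per 1000000 UMIs) on a log axis, with bars for the exact Poisson 95% interval. NT intervals are wide, as they rest on 6 cells, and Ifitm3 is the gene whose NT interval overlaps that of an RT library, RT3.

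The same genes were set beside their values in other cells of the same libraries. Fth1 was at 3426 in NT monocytes against 7524, 6558 and 7571 in RT1 to RT3, and at 2568 in NT tumor cells (gated on at least 3 UMIs of Rhox5, no UMI of Ptprc, at most 1 UMI of the complement genes and of Csf3r, Cxcr2, Retnlg and Hdc, and under 1% S100) against 6705, 7113 and 6582. On the log2 scale its RT mean was above NT by 2.09 in neutrophils, 1.08 in monocytes, 1.07 in macrophages and 1.41 in tumor cells. S100a6 was above NT by 2.48 in neutrophils and by 0.81, 1.14 and 0.61 in the other gates, Ccl6 by 2.18 and by 1.02, 1.27 and 2.96, and Cxcl3 by 3.95 and by 1.87, 1.82 and 1.32. The log2 ratio of Klf2 was -0.97 in monocytes, -0.37 in macrophages and -0.46 in tumor cells, and that of Nr4a1 was -1.31, -0.30 and 0.37. Cxcl2 was at 1485 in NT monocytes against an RT mean of 2484, a log2 ratio of 0.74, and at 3063 in NT macrophages against an RT mean of 3108, and Ifitm3 was below NT in both other myeloid gates. The part of the library as a whole in the neutrophil values was not tested.

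Neutrophils differed among the RT libraries. Each of these libraries is 1 tumor, so differences between tumors and between libraries cannot be told apart. A gene was counted when its highest RT library was at least 2-fold above its lowest and their Poisson intervals did not overlap, and 102 of 774 genes with at least 20 UMIs on average were counted (13.2%). The median ratio of highest to lowest over all 774 was 1.5. TMM scaling, with factors of 0.838 in RT2 and 1.18 in RT3, counted 163 of the 774, and a minimum of 50 UMIs on average left 40 of 334. RT2 was the highest library for 48 of the 102, RT3 for 31 and RT1 for 23. The widest were Ifi27l2a (435, 302 and 55.2 in RT1 to RT3), Il1rap (259, 221 and 36.8), Vsir, Icam1 and Cxcl10.

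Interferon-induced genes were among those counted. Interferons bind their receptors and switch on a shared set of antiviral and chemokine genes. Of the 27 genes in the list 16 were read and 10 were counted, beside 13.2% of all genes. RT2 was the highest library for 14 of the 16, where RT2 was the highest for 252 of all 774 genes. Their median ratio was 2.32. Cxcl10, a chemokine for activated T cells, was at 1005, 3375 and 515 in RT1 to RT3. Gbp2, a guanylate-binding protein, was at 880, 2451 and 680, Rsad2, an antiviral enzyme, at 1201, 1882 and 717, Isg15, a ubiquitin-like modifier, at 280, 558 and 184, and Ifit1, an antiviral RNA-binding protein, at 590, 964 and 202. Irgm1, Ifi47, Ifitm2 and Ifit3 were also counted, each highest in RT2. Ifitm1 (6410, 8952 and 4780), Slfn4 and Isg20 were not 2-fold apart. Ifi27l2a, interferon-inducible by its name but not in the list, was counted and highest in RT1.

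**Figure D4:**
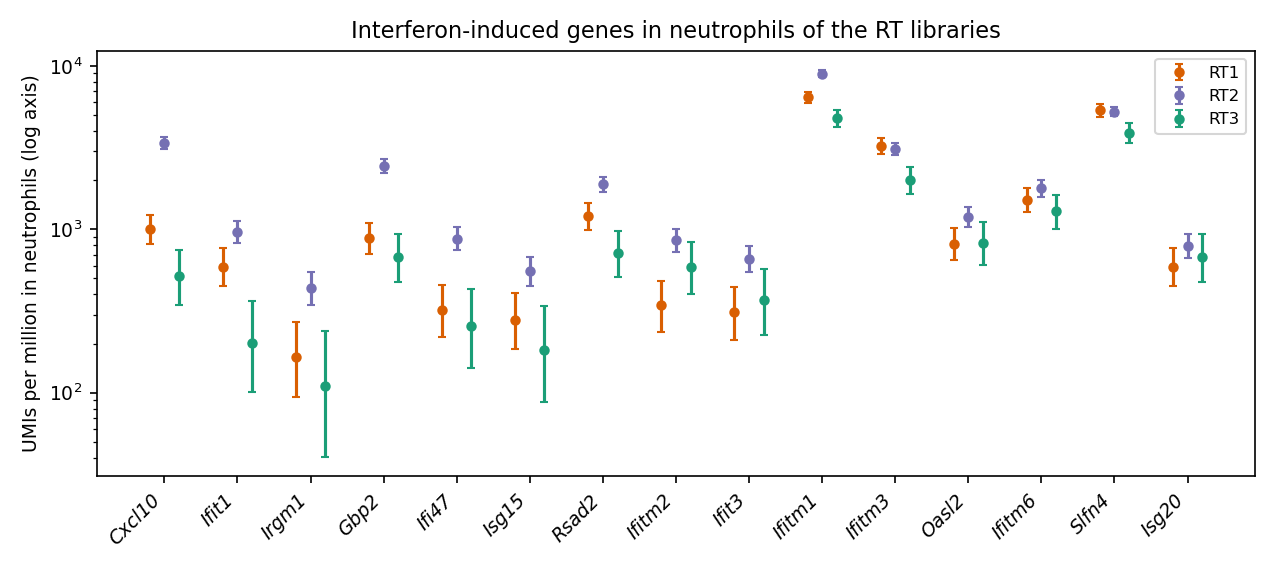
Interferon-induced genes with enough UMIs (15 of 16 shown), ordered by the ratio of their highest to their lowest RT library, in CPM (UMIs per 1000000 UMIs) on a log axis with exact Poisson 95% intervals. RT2 is the highest library for 13 of the 15 genes shown, and Cxcl10 shows the widest gap, from 515 in RT3 to 3375 in RT2.

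Without RT2, whose table stood apart, RT1 and RT3 differed for 26 of 559 genes (4.65%), and for 1 of 13 interferon-induced genes. The sum of all 27 was 24057, 35208 and 17797 in RT1 to RT3 neutrophils and 11091 in NT. The same sum was 10450, 12638 and 11786 in monocytes, 6683, 8549 and 9336 in macrophages and 2617, 3689 and 3146 in tumor cells. Of the RT libraries, RT2 was thus the highest in monocytes and tumor cells too, by a smaller margin, and RT3 was the highest in macrophages. In NT the sum was 13042 in monocytes and 11139 in macrophages, above every RT library in both gates, and 2421 in tumor cells, below every RT library. Interferon also raises MHC class I genes. RT2 was the highest library for all 6 read in neutrophils, beside 252 of all 774 genes. Of the 6, H2-T23 (280, 511 and 147) and Tap1 (228, 395 and 147) were counted, beside 13.2% of all genes.

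The promoters of the counted genes were read for the core of the interferon-stimulated response element, the letters GAAA, any 2 bases and GAAA again, on either strand, in RefSeq windows of 300 bases that run from 250 before to 50 after the start of the gene. Windows were found for 25 of the 27 genes. The letters stood in 8 of the 9 counted genes with a window and in 5 of the other 16, which include genes with too few UMIs to be read, against 3.99% of the 27025 genes in the RefSeq table. Cxcl10, Ifit1 and Isg15 are shown because they hold 1, 2 and 3 matches, overlapping ones included, with the matched letters in capitals, written 5′ to 3′ on the strand of the gene. A match is a description of the letters, not a bound site, and the windows are of GRCm38.p6, another build than that named for the counts.
Cxcl10 (GRCm38.p6, chr5:92348840-92349139, strand -): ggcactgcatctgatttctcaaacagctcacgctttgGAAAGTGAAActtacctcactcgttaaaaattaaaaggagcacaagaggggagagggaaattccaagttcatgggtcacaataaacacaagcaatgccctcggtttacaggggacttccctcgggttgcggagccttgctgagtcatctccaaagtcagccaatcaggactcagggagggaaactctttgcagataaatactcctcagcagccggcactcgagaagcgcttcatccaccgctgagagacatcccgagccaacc
Ifit1 (GRCm38.p6, chr19:34640639-34640938, strand +): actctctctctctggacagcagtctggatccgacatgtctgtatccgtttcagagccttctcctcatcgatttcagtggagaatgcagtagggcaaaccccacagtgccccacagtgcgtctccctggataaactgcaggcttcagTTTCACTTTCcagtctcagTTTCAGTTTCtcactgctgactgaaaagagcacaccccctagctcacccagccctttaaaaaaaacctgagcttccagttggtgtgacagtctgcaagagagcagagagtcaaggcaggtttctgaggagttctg
Isg15 (GRCm38.p6, chr4:156200769-156201068, strand -): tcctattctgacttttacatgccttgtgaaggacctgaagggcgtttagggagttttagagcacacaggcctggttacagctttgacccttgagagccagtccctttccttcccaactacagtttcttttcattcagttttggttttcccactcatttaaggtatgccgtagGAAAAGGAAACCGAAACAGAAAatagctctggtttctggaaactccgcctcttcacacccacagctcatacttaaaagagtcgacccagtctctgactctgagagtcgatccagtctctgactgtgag

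Other genes were highest in RT3 or RT1. Hilpda, a lipid droplet protein induced by low oxygen, was at 1626, 749 and 2317 in RT1 to RT3, and Egln3, an oxygen sensor induced by the same factor, was at 414, 174 and 588. Both were lowest in RT2, and they were the only 2 of the 14 glycolysis and hypoxia genes read that were counted, near the 13.2% over all genes. Ero1a of that list was not found under this symbol. Ero1l, the older symbol of the same gene, was also counted, highest in RT1 and lowest in RT2 (ratio 2.11). The counts of that list, here and beside monocytes, leave it out. Cxcl1 was at 445, 540 and 1361, Spp1 at 891, 331 and 956 and Mmp8 at 1098, 848 and 1783. Of 9 chemokines read 5 were counted, beside 13.2% of all genes: Cxcl1, Cxcl3, Cxcl10, Ccl2 and Ccl3. Col3a1, a collagen of fibroblasts, was at 269, 163 and 496, and the monocyte markers Ly6c2, Plac8 and Fn1 were counted as well, so that markers of other cells differed between the libraries beside these genes. Their part was not tested.

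Neutrophils were also described along the S100 share that selected them. As that share set the gate, what follows is a description of the selected cells and supports nothing. The low groups lie against the limit, at 1.01 to 3.84% S100 over the 3 libraries. The neutrophils of each RT library were split into low, middle and high groups of equal size by that share, a split chosen after the data were seen, with 23 to 56 cells in a group, and UMIs of S100a8 and S100a9 were left out of the totals. Of 634 genes with enough UMIs, 8 were at least 2-fold higher in the high group in all 3 libraries (1.26%) and 12 at least 2-fold lower (1.89%), with a median log2 ratio of -0.04. These counts were unstable: they were 28 and 23 without RT2, 24 and 44 without RT3, 11 and 24 without RT1, and 11 and 5 with complement genes and Rhox5 at 0. The higher genes were Lcn2, Ngp, Ly6g, Ifitm6, Ifitm1, Anxa1, Alox5ap and Wfdc21, of which Lcn2 and Ngp are specific granule genes. Lcn2 was at 108, 371 and 700.0 in the low groups of RT1 to RT3 and at 2417, 2711 and 2275 in the high groups. Ngp was at 27, 18.5 and 0 in the low groups and at 1457, 594 and 467 in the high ones. Retnlg, a gene of the rule, was at 6423, 5469 and 13570 in the low groups and at 29700, 22804 and 29863 in the high ones.

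The genes higher in the low group were Tnf, Csf1, Ifit3, Fn1, Ly6a, Npc2, Tgif1, Rpl38, Rack1, Atp6v1b2, Spp1 and Bhlhe40. Tnf was at 1242, 1316 and 1346 in the low groups and at 364, 557 and 58.3 in the high groups, the last from 1 UMI. Csf1 was at 432, 519 and 431 against 99.3, 130 and 0. Ccl3 and Cxcl2 had higher means in the low groups without reaching 2-fold everywhere, and Fth1 and Il1b were not past the rule. Fn1, a marker of monocytes, was at 513, 185 and 323 against 199, 37.1 and 117. The macrophage markers outside the rule summed to 378, 408 and 108 in the low groups and to 199, 223 and 0 in the high ones. Those of monocytes summed to 3913, 2725 and 1454 against 1788, 2544 and 1458, and the part of such RNA was not tested. Median UMIs were 882, 918 and 731 in the low groups and 871, 982 and 755 in the high ones, and were thus close.

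**Figure D5:**
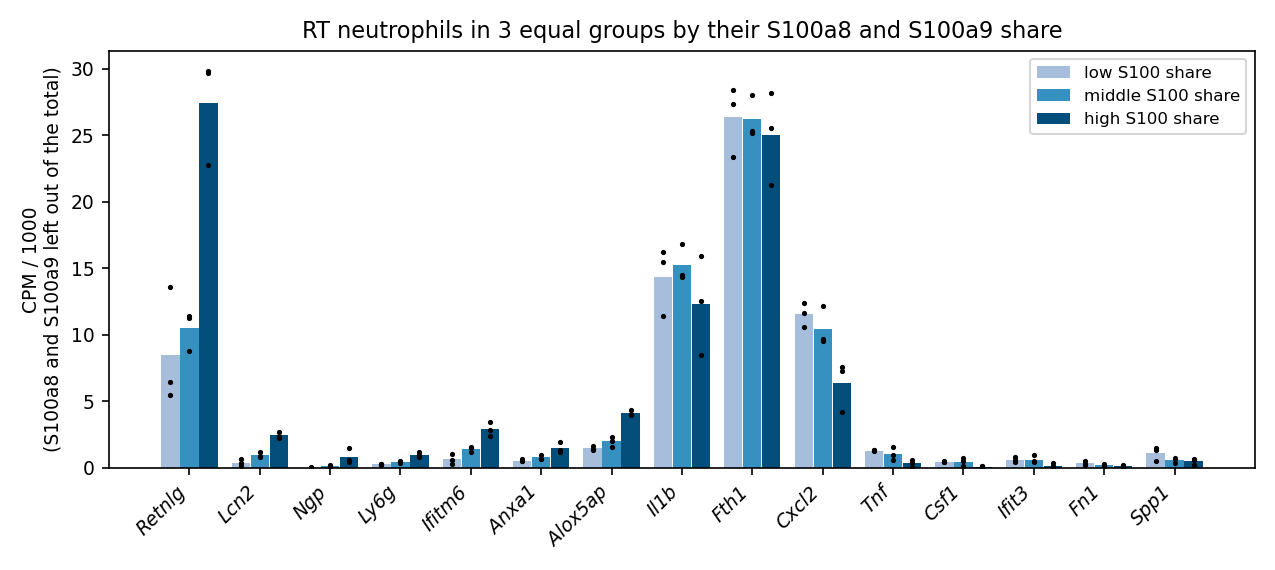
Mean level over the RT libraries (bars) and the level in each library (points) of 15 genes in the low, middle and high groups of neutrophils by their S100a8 and S100a9 share, as CPM divided by 1000, with those 2 genes left out of the total. Retnlg, Lcn2, Ngp, Ly6g, Ifitm6, Anxa1 and Alox5ap have their highest mean in the high group, and Cxcl2, Tnf, Csf1, Ifit3, Fn1 and Spp1 their lowest mean there.

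The signals that draw neutrophils were read over all kept barcodes. Cxcl1 was at 4605 in NT and at 3120, 3273 and 4207 in RT1 to RT3, and tumor cells alone gave 4710 in NT and 3464, 3877 and 4434. No RT library thus had more Cxcl1 than NT. Cxcl2 was at 650 in NT and at 1049, 1044 and 909, and Cxcl3 at 13.5 in NT and at 104, 55.1 and 101, with neutrophils themselves holding 6.27%, 5.64% and 2.23% of the Cxcl3 UMIs of RT1 to RT3. Ppbp, a platelet chemokine that also binds CXCR2, was at 7.88 in NT and at 71.3, 33.3 and 73.1. Csf3 was at 0.144 in NT and at 0.103, 0.156 and 0.129, close to nothing in all libraries.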

How the data were processed

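The authors dissociated the tumors, made 3′ single-cell libraries (SeekOne MM kit) and deposited 1 table of UMI counts per library, as whole numbers and without normalization, with barcodes already called. The paper names SeekOne Tools for the reads, and the submitters' processing notes list STAR 2.5.1b, featureCounts, Subread 1.6.4, Cell Ranger and the builds GRCm39 and mm39, without their roles. How barcodes were filtered before deposit is not given in the sources used here. The tables were joined on the 18605 gene symbols they share, and other genes carried up to 0.00185% of a library's UMIs.

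Counts were summed per library and gate and divided by the gate's UMIs (CPM). Shares have exact Clopper-Pearson and sums exact Poisson 95% intervals (Python 3.11.15, scipy 1.17.1), and TMM factors came from edgeR 4.0.16. Cells of 1 library are not replicates, so no test was run. A gene with 0 UMIs in a library was set at 3 counts as a bound in 1 direction only. No doublet caller was run, and leaving out barcodes with UMIs of other cell types, or the 8% with the most UMIs, were alternatives. The calling rules were tested on simulated data. Named genes were those of the rule and of 36 lists, the 15 most abundant, and those with the largest ratios (up to 10 each way between NT and RT, 10 between RT libraries, 12 each way against monocytes). Other genes named were chosen after their values were seen, as were the groups by S100 share and the promoter letters. The members and lists were chosen with earlier results of these data known. Chemokine and MHC genes have close copies, and their counts depend on how shared reads were assigned. Some genes of the lists are not reported here by name.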

Additional observations from a re-analysis of the deposited data

How the results depend on the processing

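The excess of neutrophils in RT kept its direction under all 16 alternatives. It moved by more than the spread between RT libraries under 2 of them, to 0.292 percentage points with at least 500 genes and to 1.44 with barcodes of at most 1 Rhox5 UMI as the denominator, and it ran from 0.535 to 0.863 when 1 RT library was left out. Of genes higher in RT than in NT, 3 were left with at least 500 genes, 97 with TMM scaling and 53 with no minimum. Of those lower in RT, 1 was left with Csf3r, Cxcr2, Retnlg and Hdc at 4 UMIs or more, 5 with complement genes and Rhox5 at 0, 0 with at least 500 genes, 0 with TMM scaling, 1 with 20 UMIs expected in NT, and 277 with no minimum. The TMM factor of NT was 2.17 on 4328 UMIs. Without 1 RT library, 5 to 9 genes were higher and 4 to 6 lower. Between RT libraries, TMM scaling gave 163 genes, 50 UMIs on average 40, and pairs of libraries 26 to 61. Beside other gates, with 1 RT library left out, 333 to 412 genes were higher than in monocytes, 654 to 1166 lower, 783 to 864 higher than in macrophages and 629 to 1131 lower, with the largest counts of lower genes without RT3. With 20 UMIs expected on both sides, added after seeing the data, 87 of 437 genes were higher and 79 lower than in monocytes, and 101 and 87 of 421 than in macrophages. For the high against the low S100 group, leaving out 1 RT library gave 11 to 28 higher and 23 to 44 lower, and complement genes and Rhox5 at 0 left 5 lower. The balance of higher to lower calls turned between NT and RT with no minimum, beside monocytes with 20 UMIs expected on both sides, beside macrophages without RT3 (864 to 1131), and for the S100 groups without RT2 (28 to 23) and with complement genes and Rhox5 at 0 (11 to 5). No paired analysis was possible because NT has 1 library and its number pairs it with no RT library. Differences in genes under 10 expected UMIs could not be seen in the 6 NT cells.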
